A study of Arabidopsis thaliana with 8 samples.

Results

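Genes whose signal was lower under iron deficiency in roots of both WT and fit plants of Arabidopsis thaliana are described here. They were chosen by their measured values. On the log2 scale, the lowest of the 2 iron-sufficient arrays had to lie at least 0.5 above the highest of the 2 iron-deficient arrays in WT, and again in fit. This distance is called the gap below, and the log2 difference between deficient and sufficient iron is called the iron response. The rule's gaps were met by 63 of 22746 probe sets (0.277%), and 58 remained as members after 5 were left out by name or as plastid genes: those for AT3G49960, SAPX, RCA, AT1G52820 and the plastid gene rpl16. Of the 58, 26 named 1 gene each, 26 genes in all, and 32 had no gene name here. By the same gap 234 probe sets (1.03%) were lower in WT and 432 (1.9%) in fit, so the 63 made up 26.9% of the first set and 14.6% of the second. The mirror rule, higher under iron deficiency in both, was met by 61.

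The groups were WT and fit, each with sufficient or deficient iron and with 2 biological replicates, 1 array per sample. fit plants are mutants of FIT, whose allele the labels do not give; no probe set was named for FIT itself, so its signal was not checked. Both genotypes spent 14 days on B5 medium (Gamborg) and 3 more days on treatment medium. The latter held 50 µM Fe(III)-EDTA for sufficient iron, or no added iron and 300 µM of ferrozine, a chelator of ferrous iron, for deficiency. The iron-deficient groups therefore differ from the others in the chelator as well as in iron. Total RNA of roots was hybridised to Affymetrix arrays, so fewer cells of a type and less RNA per cell cannot be told apart.

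FIT is a basic helix-loop-helix transcription factor that switches on iron uptake in the root epidermis. Other factors of that family act upstream of it or beside it, among them PYE, which represses genes. Lowering the expression of iron-storing and iron-using proteins is a known arm of the iron deficiency response in plants, alongside the better known rise of uptake genes. Cell walls are a separate matter: expansins loosen them during growth, and pectin-modifying enzymes and their inhibitors alter their stiffness.

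As a check that iron supply differed, 6 of 7 listed iron deficiency regulators were measured, and 5 were called higher in iron-deficient WT and 3 in iron-deficient fit (limma, Benjamini-Hochberg adjusted p under 0.05 over all probe sets). The share of all probe sets called higher in the iron responses is not given here. The median iron response of the list was 2.195 in WT and 1.124 in fit, against -0.01 and 0.03 over all probe sets. Between genotypes, 1 was called higher in fit with sufficient iron, where 0.00879% of all probe sets were called in either direction. Under deficiency 1 was called lower in fit, where 0.273% were called in either direction. The list's median log2 difference, fit minus WT, was 1.01 with sufficient iron and 0.10 under deficiency. None of 16 root tissue markers and 8 meristem markers was named by a probe set of its own, so the tissue was not checked from them. The shoot photosynthesis list had 5 of 22 measured, with a summed intensity of 454.9 and 563.1 in iron-deficient WT, 675.8 and 680.1 in iron-sufficient WT, 530.5 and 552.9 in iron-deficient fit, and 582.5 and 737.1 in iron-sufficient fit. The sum was lower under deficiency in both genotypes, but in fit only the means of LHCB4.1 and RCA were lower, at -0.45 and -0.67 on the log2 scale, while PRK, SBPASE and PORB had 0.14, 0.24 and 0.01. The fit arrays of LHCB4.1 overlapped, with 7.90 and 8.50 under sufficient iron and 8.18 and 7.32 under deficiency (SE 0.32). PORB had 5.84 and 7.43 in iron-deficient fit, so its mean hides a wide spread. RCA is one of the genes left out of the members. The list's part in the members' values was not tested. The 2 iron-deficient arrays of replicate 2 stood apart in RNA quality: the 3' to 5' signal ratio of the control transcripts was 3.84 in WT and 5.91 in fit, against 1.43 to 2.03 on the other 6. The members' medians, their call counts and the genotype directions are also given without them.

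Over the 8 arrays their mean log2 signal ran from 5.79 to 12.22 with a median of 7.77. The median signal of the members was 8.66 and 8.78 on the iron-sufficient WT arrays, 7.42 and 7.36 on the iron-deficient WT arrays, 8.31 and 8.35 on the iron-sufficient fit arrays, and 7.15 and 7.01 on the iron-deficient fit arrays. The distance between iron levels is what the rule chose. The members' median log2 fold change, which the rule fixed in sign, was -1.10 in WT and -1.15 in fit, against -0.01 and 0.03 over all probe sets. As folds, the differences ran from 1.51-fold to 6.37-fold in WT and from 1.5-fold to 10.3-fold in fit. Without the 2 arrays of high control ratio the medians were -0.96 and -1.01.

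Since the rule used both iron responses, they are given as a description only. The linear model called 10 members lower in WT, where 0.0747% of all probe sets were called lower, and 5 in fit, where 0.0703% were. Of these, 3 were called in both genotypes: AT2G36885, AT1G68650 and the unnamed probe set 251109_at. AT5G40510 and the unnamed 261448_at were called in fit. The counts changed when single arrays were left out, and such fits also have fewer arrays to estimate spread. The drops are listed next, while leaving out any other single array raised the counts slightly. The share of all probe sets called in fits with arrays left out is not given here. In WT, 0 and 1 members were called without iron-sufficient WT replicate 1 or 2, 2 and 1 without iron-deficient WT replicate 1 or 2, and 6 without either iron-sufficient fit array. In fit, 0 were called without either iron-sufficient fit array, 3 without either iron-sufficient WT array, and 3 without iron-deficient fit replicate 2. Without both arrays of high control ratio the counts were 13 and 8.

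**Figure D1:**
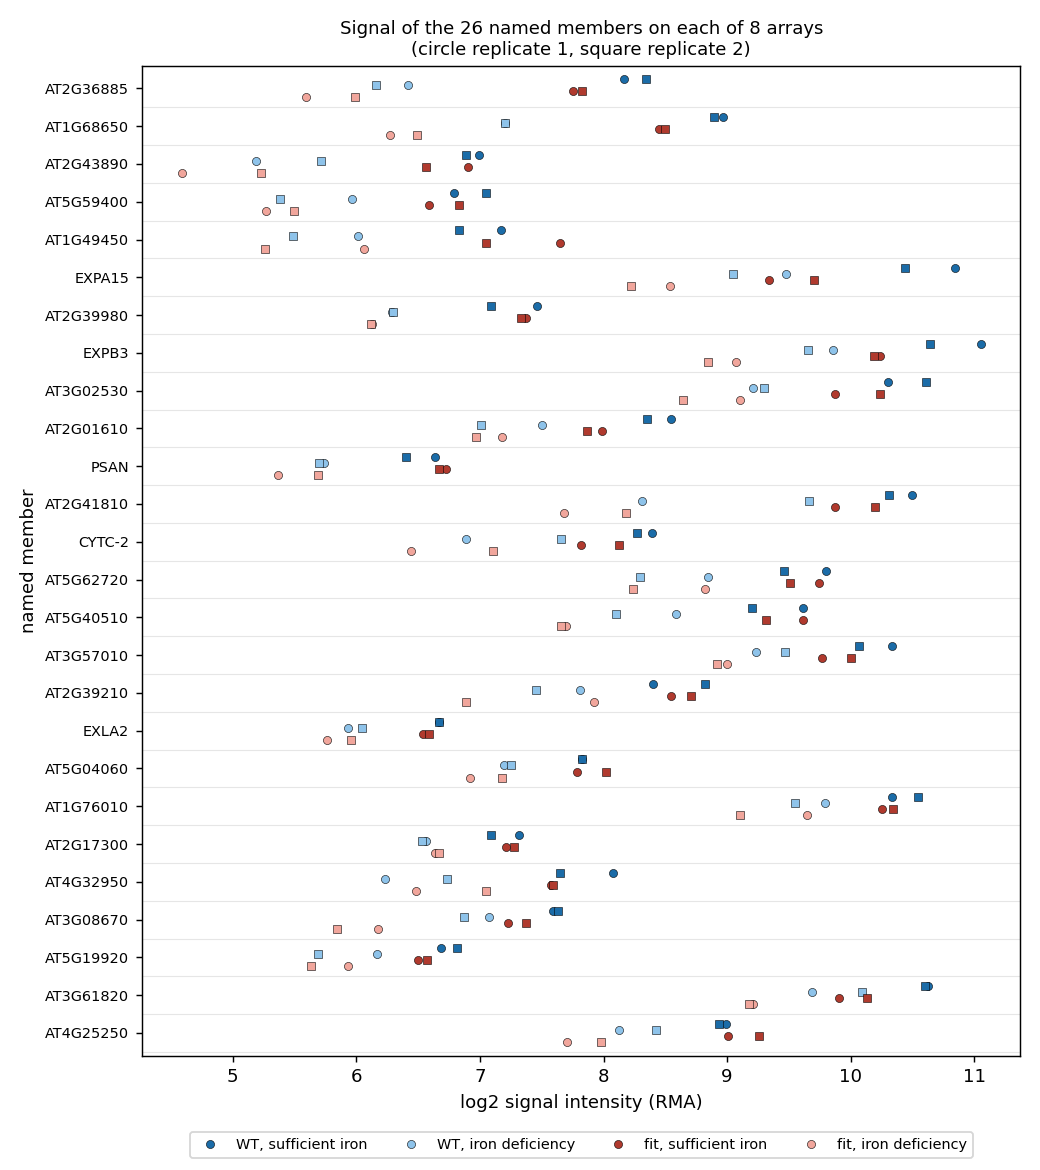
Log2 signal intensity (x axis) of each of the 26 named members (y axis, ordered by the smaller of the gaps in WT and fit) on all 8 arrays, with colours for the 4 groups, circles for replicate 1 and squares for replicate 2. Within each genotype all iron-sufficient points lie to the right of the iron-deficient ones, as the rule requires, and for EXPA15, EXPB3 and AT3G61820 the fit points lie to the left of the WT points of the same iron supply.

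The named members with the widest gaps are given first. AT2G36885, for which no role is given here, had log2 signals of 8.17 and 8.35 in iron-sufficient WT, 6.42 and 6.16 in iron-deficient WT, 7.75 and 7.82 in iron-sufficient fit, and 5.60 and 5.99 in iron-deficient fit. Its log2 fold change was -1.97 in WT and -1.99 in fit (SE 0.21 for each), nearly the same in both genotypes. AT1G68650, also called PML5, encodes a member of the GDT1-like family of membrane proteins, whose relatives carry manganese and calcium ions. Its signals were 8.96 and 8.89 in iron-sufficient WT, 7.21 and 7.20 in iron-deficient WT, 8.45 and 8.50 in iron-sufficient fit, and 6.28 and 6.49 in iron-deficient fit. The 2 arrays of each group differed by at most 0.22, and the log2 fold change was -1.73 in WT and -2.09 in fit (SE 0.17 for each).

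The GDT1-like family, a list chosen with AT1G68650 already known, had 4 of 5 members measured, and AT1G68650 alone was called in either genotype. PAM71 had -0.23 in WT and 0.05 in fit on the log2 scale, PML3 had -0.25 and -0.34, and PML4 had 0.21 and -0.19 (SE 0.21 to 0.27). No test compared AT1G68650 with these relatives.

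Cell wall proteins were encoded by 7 of the 26 named members, by a grouping made after the members were known and not compared with the share among all genes. Their median log2 fold change was -1.19 in WT and -1.25 in fit, beside -1.06 and -1.19 for all named members. AT2G43890 encodes a protein of the polygalacturonase family, whose enzymes cut pectin, and had signals of 6.99 and 6.88 in iron-sufficient WT, 5.19 and 5.72 in iron-deficient WT, 6.90 and 6.56 in iron-sufficient fit, and 4.59 and 5.22 in iron-deficient fit. Its log2 fold change was -1.49 in WT and -1.82 in fit (SE 0.28 for each). Replicate 1 was the lower of the iron-deficient arrays in both genotypes, the array of ordinary control ratio.

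EXPA15, an alpha-expansin, had signals of 10.85 and 10.44 in iron-sufficient WT, 9.48 and 9.05 in iron-deficient WT, 9.34 and 9.71 in iron-sufficient fit, and 8.54 and 8.22 in iron-deficient fit. EXPB3, a beta-expansin, had 11.05 and 10.64 in iron-sufficient WT, 9.86 and 9.65 in iron-deficient WT, 10.24 and 10.19 in iron-sufficient fit, and 9.07 and 8.85 in iron-deficient fit. The iron-deficient WT arrays overlapped the iron-sufficient fit arrays for EXPA15 and lay below them for EXPB3, and iron-deficient fit was lowest for both. The log2 fold change of EXPA15 was -1.38 in WT and -1.14 in fit (SE 0.25 for each), and that of EXPB3 was -1.09 in WT and -1.25 in fit (SE 0.21 for each). EXLA2, an expansin-like gene, had a log2 response of -0.68 in WT and -0.71 in fit (SE 0.17 for each).

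**Figure D2:**
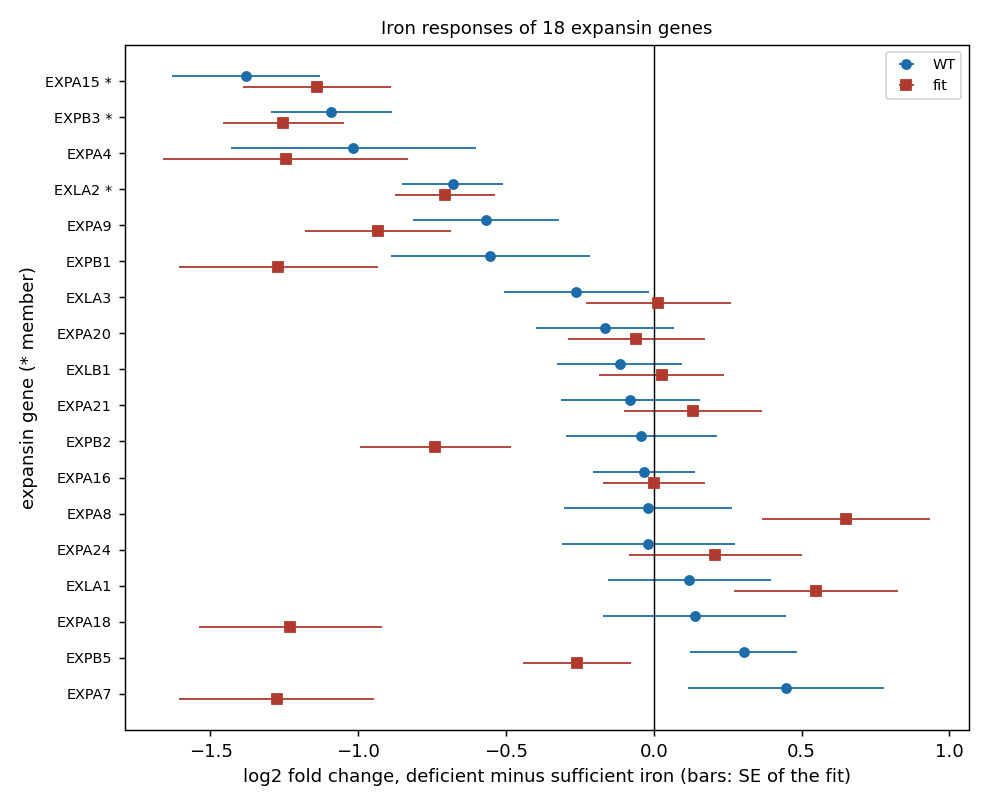
Log2 fold change between deficient and sufficient iron (x axis, bars are the SE of the fit) of the 18 expansin genes named by a probe set (y axis, members marked with an asterisk), circles for WT and squares for fit. EXPA15, EXPB3 and EXLA2 lie left of 0 in both genotypes, while EXPA7 and EXPA18 lie left of 0 in fit alone.

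Expansins as a family varied widely. Of the 18 named by a probe set, a set defined by gene symbol after the members were known, 15 were no members. Among these 15, 11 had a negative log2 fold change in WT and 8 in fit, 5 of them in both. Their medians were -0.04 in WT and -0.06 in fit. limma called 0 of the 15 in either genotype, and 1 in WT and 6 in fit had an unadjusted p under 0.05, where 7.2% and 8.52% of all probe sets had. All of these were lower under deficiency: EXPA4 in WT, and EXPA4, EXPA7, EXPA9, EXPA18, EXPB1 and EXPB2 in fit. Of all 18, with the 3 members included by rule, 3 met the gap in WT and 8 in fit. Over all probe sets 1.03% and 1.9% did. By the smaller gap, EXPB1, EXPA9 and EXPA4 came nearest to membership among these 15. Their gaps in WT and fit were 0.35 and 0.58 for EXPB1, 0.26 and 0.67 for EXPA9, and 0.20 and 0.64 for EXPA4. The log2 fold changes were -0.55 and -1.27 for EXPB1, -0.57 and -0.93 for EXPA9, and -1.02 and -1.25 for EXPA4. EXPA7 and EXPA18, which act in root hairs, had gaps of 1.11 and 0.96 in fit and of -1.18 and -0.80 in WT, where a negative gap means overlapping or reversed arrays. The rule also left both out by name, so neither could be a member.

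AT2G01610 and AT4G25250 belong to the family of invertase and pectin methylesterase inhibitors. AT2G01610 had signals of 8.55 and 8.36 in iron-sufficient WT, 7.50 and 7.01 in iron-deficient WT, 7.99 and 7.87 in iron-sufficient fit, and 7.18 and 6.97 in iron-deficient fit, and a log2 response of -1.19 in WT and -0.85 in fit (SE 0.22 for each). AT4G25250 had -0.69 in WT and -1.29 in fit (SE 0.20 for each). It had the narrowest gap of all members, 0.51 in WT, beside 1.03 in fit. AT2G41810, a cell wall protein of the DUF642 family, had signals of 10.50 and 10.31 in iron-sufficient WT, 8.31 and 9.66 in iron-deficient WT, 9.88 and 10.20 in iron-sufficient fit, and 7.68 and 8.18 in iron-deficient fit. The 2 iron-deficient WT arrays were 1.35 apart, the widest replicate spread of any WT group among the named members, and the log2 fold change was -1.42 in WT and -2.11 in fit (SE 0.41 for each).

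PSAN and CYTC-2 encode electron transport proteins. PSAN, a nuclear-encoded subunit of photosystem I, had signals of 6.64 and 6.40 in iron-sufficient WT, 5.74 and 5.70 in iron-deficient WT, 6.73 and 6.67 in iron-sufficient fit, and 5.36 and 5.69 in iron-deficient fit. Its log2 fold change was -0.80 in WT and -1.17 in fit (SE 0.19 for each). PSAE-1 was the other nuclear-encoded photosystem I subunit found by gene symbol. It had -0.80 in WT and -0.38 in fit and was no member, its arrays overlapping in fit. CYTC-2, a cytochrome c gene for the haem protein that carries electrons in mitochondria, had -1.06 in WT and -1.20 in fit (SE 0.31 for each). CYTC-1, its homologue, had 0.12 and 0.14 (SE 0.21 for each).

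AT3G02530 encodes a subunit of the chaperonin that folds actin and tubulin. Its signals were 10.30 and 10.61 in iron-sufficient WT, 9.21 and 9.30 in iron-deficient WT, 9.87 and 10.24 in iron-sufficient fit, and 9.11 and 8.64 in iron-deficient fit, and its log2 fold change was -1.20 in WT and -1.18 in fit (SE 0.23 for each). AT3G61820, of the aspartyl protease family, had -0.72 in WT and -0.83 in fit (SE 0.20 for each). AT4G32950, of the protein phosphatase 2C family, had -1.38 in WT and -0.81 in fit (SE 0.27 for each).

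Among other enzymes, AT2G39980, of the BAHD family of acyltransferases, had signals of 7.46 and 7.09 in iron-sufficient WT, 6.29 and 6.30 in iron-deficient WT, 7.37 and 7.33 in iron-sufficient fit, and 6.13 and 6.12 in iron-deficient fit, and a log2 response of -0.98 in WT and -1.23 in fit (SE 0.18 for each). Its iron-deficient replicates lay within 0.02 of each other in both genotypes. AT3G57010, of the strictosidine synthase-like family, had -0.85 in WT and -0.93 in fit (SE 0.19 for each), and AT5G04060, of a methyltransferase family, had -0.60 in WT and -0.85 in fit (SE 0.18 for each). AT5G40510, of a family with ferredoxin-like domains, had -1.06 in WT and -1.79 in fit (SE 0.24 for each).

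AT1G49450, with WD40 repeats, had signals of 7.17 and 6.83 in iron-sufficient WT, 6.01 and 5.49 in iron-deficient WT, 7.65 and 7.05 in iron-sufficient fit, and 6.06 and 5.26 in iron-deficient fit. In both genotypes the iron-deficient array of replicate 2, that of high control ratio, was the lower, and the log2 fold change was -1.25 in WT and -1.69 in fit (SE 0.34 for each). AT5G19920, also with WD40 repeats, had -0.82 in WT and -0.75 in fit (SE 0.22 for each), and AT1G76010, of the Alba family of nucleic acid binding proteins, had -0.77 in WT and -0.92 in fit (SE 0.23 for each). The membrane proteins AT5G62720 and AT2G39210 had -1.06 in WT and -1.10 in fit (SE 0.28 for each) and -0.98 in WT and -1.22 in fit (SE 0.34 for each), respectively. AT5G59400, for which no role is given here, had signals of 6.79 and 7.05 in iron-sufficient WT, 5.97 and 5.38 in iron-deficient WT, 6.59 and 6.83 in iron-sufficient fit, and 5.27 and 5.50 in iron-deficient fit, and a log2 response of -1.25 in WT and -1.33 in fit (SE 0.24 for each). AT2G17300 and AT3G08670, also without a role here, had -0.66 in WT and -0.59 in fit (SE 0.17 for each) and -0.64 in WT and -1.29 in fit (SE 0.19 for each), respectively.

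The widest differences belonged to unnamed probe sets, singled out here after their values were seen. The probe set 251109_at had signals of 11.51 and 11.70 in iron-sufficient WT, 9.22 and 8.65 in iron-deficient WT, 11.16 and 11.18 in iron-sufficient fit, and 8.25 and 8.73 in iron-deficient fit, which is a log2 response of -2.67 in WT and -2.68 in fit (SE 0.25 for each). The probe set 261448_at had 9.43 and 9.21 in iron-sufficient WT, 7.69 and 6.35 in iron-deficient WT, 9.33 and 9.10 in iron-sufficient fit, and 6.01 and 5.70 in iron-deficient fit. Its log2 fold change was -2.30 in WT and -3.36 in fit (SE 0.39 for each), and its iron-deficient WT arrays were 1.34 apart. The other 30 unnamed members had log2 fold changes no further from 0 than -2.08 in WT and -1.91 in fit. Of the 9 members with a gap of at least 1 in both genotypes, 3 were named and 6 were not.

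**Figure D3:**
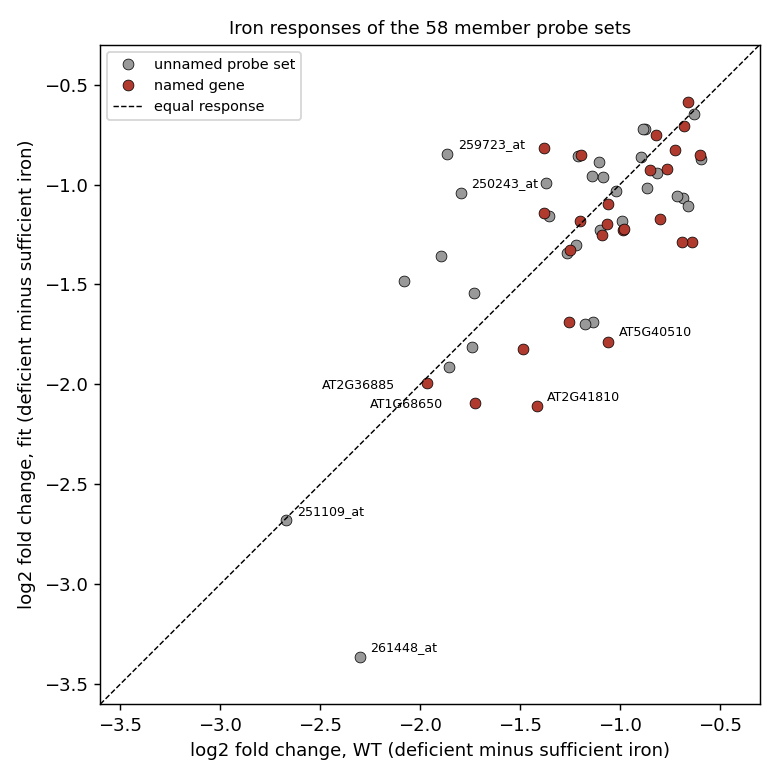
Log2 fold change between deficient and sufficient iron in WT (x axis) and in fit (y axis) of the 58 member probe sets, named in red and unnamed in grey, with a dashed line where both are equal. Most points lie near the line, 261448_at, AT5G40510 and AT2G41810 lie below it (larger response in fit) and 259723_at and 250243_at above it.

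The next comparison asked whether the size of the iron response differed between the genotypes. The log2 fold changes were within 0.25 of each other for 34 of the 58 members, and they were more than 1 apart for 2. The response was larger in fit for 38 members and in WT for 20. The difference, fit minus WT, was thus negative for 65.5% of members and for 45.3% of all probe sets. In the test of the difference, limma called 0 of 58, where 0.0747% of all probe sets were called, and 2 had an unadjusted p under 0.05, or 3.45% of members against 3.25% of all probe sets. These were AT3G08670, at -0.65 (SE 0.27, fit minus WT, limma adjusted p = 0.9998), and the unnamed 259723_at, at 1.02 (SE 0.31, limma adjusted p = 0.9998). The difference is built from the responses the rule used, and 2 arrays per group leave an SE of 0.23 or more on it for every member. It is therefore not shown that the responses were alike.

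Whether fit and WT differed at the same iron supply was a comparison the rule did not use, although it draws on the same arrays. The rule favours high signals with sufficient iron and low ones under deficiency, and the smaller gap was in WT for 40 members. Such a choice can tilt the sign of a difference at 1 iron level. How far it did so was not tested. Most members had a lower mean signal in fit, none by a margin that passed the test. With sufficient iron 43 of 58 had a negative log2 fold change (fit minus WT), 74.1% against 50.4% of all probe sets, with a median of -0.21 against 0.00. Under deficiency 46 did, 79.3% against 45.6%, with a median of -0.29 against 0.03, and without the 2 arrays of high control ratio 45 did, with a median of -0.27. No single member was called: limma called 0 of 58 with sufficient iron, where 0.00879% of all probe sets were called, and 0 of 58 under deficiency, where 0.273% were. The lowest adjusted p of a member was 1 with sufficient iron and 0.185 under deficiency.

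At an unadjusted p under 0.05, 10 members were lower in fit with sufficient iron, 17.2% of them, where 0.725% of all probe sets were lower and 1.84% differed either way, and 0 members were higher. Under deficiency 16 were lower, 27.6% where 2.98% of all probe sets were lower and 5.13% differed either way, and 1 was higher, the unnamed 259723_at. Both fit arrays lay below both WT arrays for 29 members with sufficient iron (16.5% of all probe sets) and for 26 under deficiency (11.1%). At both iron levels this held for 17 members, where 2.07% of all probe sets did so. Among these were 9 named genes: AT2G36885, AT1G68650, EXPA15, EXPB3, AT3G02530, AT2G41810, AT3G57010, AT3G08670 and AT3G61820. Members may respond together, so these counts are not counts of independent events. The rule also favours probe sets whose replicates lie close together. Close replicates alone can raise the counts of low p and of arrays without overlap above the share of all probe sets. How far they did so was not tested.

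EXPA15 had the widest difference with sufficient iron, a log2 fold change of -1.12 (SE 0.25, or 2.18-fold lower in fit), followed among named members by EXPB3 at -0.63 (SE 0.21) and AT3G61820 at -0.59 (SE 0.20). Under deficiency EXPA15 had -0.88 (SE 0.25, limma adjusted p = 0.482), EXPB3 -0.80 (SE 0.21) and AT3G61820 -0.70 (SE 0.20). For these 3 genes the differences at both iron levels were within 0.25 of each other. AT1G68650 had -0.45 (SE 0.17) with sufficient iron and -0.82 (SE 0.17) under deficiency, and AT2G36885 had -0.47 (SE 0.21) and -0.50 (SE 0.21).

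AT3G08670 had -0.31 (SE 0.19) with sufficient iron and -0.96 (SE 0.19, adjusted p = 0.185) under deficiency. AT5G40510 had 0.06 (SE 0.24) and -0.67 (SE 0.24), and AT2G41810 -0.37 (SE 0.41) and -1.06 (SE 0.41). By role, 6 of the 7 cell wall genes were lower in fit with sufficient iron and 7 under deficiency, with medians of -0.37 and -0.55. Of all 26 named members 18 and 24 were lower, where 50.4% and 45.6% of all probe sets were. The 3 genes for protein folding, cleavage or dephosphorylation had medians of -0.40 and -0.38. The 4 genes of other enzyme families had medians of 0.07 and -0.28. No test compared the roles.

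**Figure D4:**
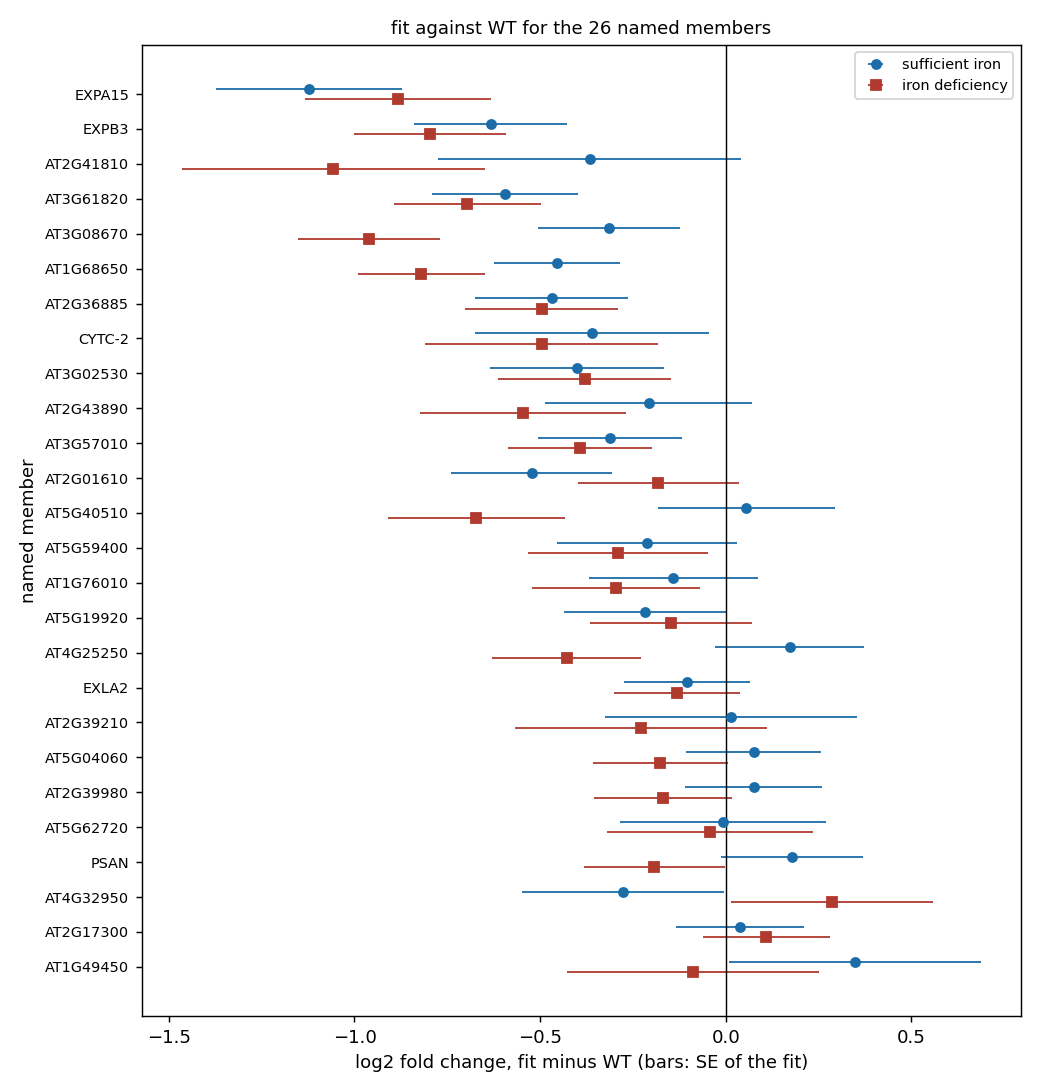
Log2 fold change of fit against WT (x axis, bars are the SE of the fit) of the 26 named members (y axis, ordered by the mean of both), circles for sufficient iron and squares for iron deficiency. With sufficient iron 18 of 26 lie left of 0 and under deficiency 24 of 26, and EXPA15 and EXPB3 lie furthest left by that mean.

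The mean of the genotype differences at both iron levels is a contrast orthogonal to both iron responses, although the gaps also use the lowest and highest arrays. It was added after the data had been seen. It was negative for 47 of 58 members, or 81% against 48.5% of all probe sets. Its median was -0.24 against 0.01. limma called 0 members, where 0.154% of all probe sets were called, with a lowest adjusted p of 0.203 for EXPA15, whose mean difference was -1.002 (SE 0.18). At an unadjusted p under 0.05, 20 were lower in fit, 34.5% where 2.06% of all probe sets were lower and 4.12% differed either way. This count has the same limit, as the rule favours close replicates. Without the 2 arrays of high control ratio the mean was negative for 47 members, with a median of -0.23. The 61 probe sets that were higher under iron deficiency in both genotypes lay on the other side. With sufficient iron 52 of 61 were higher in fit and 9 lower, with a median of 0.31, where 50.4% of all probe sets were lower. Under deficiency the shift was smaller: 40 were higher and 21 lower, with a median of 0.21, where 45.6% of all probe sets were lower. The mirror rule also chose on these arrays, so it too can tilt the sign at 1 iron level.

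Iron storage genes, a role this response is known for, were hardly measured by name. Of 17 listed, VTL3 and VTL4, relatives of vacuolar iron transporters, had a probe set of their own, and neither was a member or called, with log2 fold changes of -0.10 and -0.21 in WT and -0.11 and -0.38 in fit. No ferritin gene was named. The iron-sulfur list had 2 of 14 measured, SDH2-2 at -0.45 in WT and -0.92 in fit and HCF101 at -0.45 and 0.30, and the antioxidant list had TAPX alone, at 0.25 and 0.36. None of these was called or a member. The rule left out SAPX, SIR, SDH2-1 and ISU1 by name beforehand, so none of them could be a member. Of these, SAPX alone met the gaps, with 1.05 in WT and 1.39 in fit. The root hair list had 3 of 15 measured, none a member and none called, with a summed intensity of 995.9 and 596.8 in iron-sufficient WT, 1142 and 755.5 in iron-deficient WT, 1065 and 938.4 in iron-sufficient fit and 446.0 and 388.2 in iron-deficient fit. Replicate 2 was the lower in every group. The sum was lowest in iron-deficient fit, and its part in the members' values there was not tested. Of the 3 genes measured, EXPA7 and EXPA18 were left out of the members by name, so neither could be one.

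At the threshold, the members with the narrowest gaps were AT4G25250 at 0.51, AT3G61820 at 0.51 and AT5G19920 at 0.52, taking the smaller of WT and fit. Just outside were AT2G48080 at 0.499, an unnamed probe set, 263553_at, at 0.493, and AT4G24780 at 0.491. AT2G48080 had a gap of 1.5 in fit.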

How the data were processed

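Root RNA of 8 samples was labelled with biotin and hybridised to Affymetrix arrays, per the labels' protocols. The deposited values are linear signal intensity per probe set, made by the authors with RMA, per the submitters' processing notes. The labels state neither the RMA version nor which arrays were normalised jointly. The deposited intensity ran from 7.13 to 21060, with array medians of 111.961 to 117.813. Precision is limited by the number of arrays, 2 per group. RMA compresses differences between dim probe sets.

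log2 was taken, 64 control probe sets were left out, and 22746 were tested. Of these, 13513 named 1 gene, 503 several and 8730 none, through the platform annotation and the RefSeq table of TAIR10.1, used for names and gene order. Sequences and coordinates are not used here. Groups came from the sample titles. 4 group means were fitted to all 8 arrays with limma 3.58.1 in R 4.3.3 (lmFit, eBayes, no trend, not robust; 4 residual and 3.82 prior degrees of freedom), with Benjamini-Hochberg adjustment over 22746 and calls at an adjusted p under 0.05. SE is from this fit. Signals are log2 and were compared between arrays only for the same probe set. The 3' to 5' ratio is the geometric mean over 6 control pairs for actin, GAPDH and ubiquitin. The fit was tested on simulated data.

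The members and lists were chosen with earlier results of these data known. All named members are named. Values on all arrays are given for the 12 with the widest smaller gap, and genes and probe sets outside that rule were chosen after their values were seen. Of the planned steps, the search of promoters for motifs was not run. Alternatives covered normalisation, filter, variance, arrays, a replicate block and the control ratio.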

Additional observations from a re-analysis of the deposited data

How the results depend on the processing

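The sign of the members' iron responses is fixed by the rule and says nothing about stability. The rule found 58 probe sets. It found 281 with a gap of at least 0.25, 9 with a gap of at least 1, and 37 where group means had to be at least 1 apart, 27 of them members. Quantile normalisation left 46 (43 members) and median centring 53 (51 members). Leaving out 1 array gave 69 to 147 and leaving out both arrays of high control ratio, chosen after seeing the data, 184, where fewer arrays can only add probe sets.

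The 10 members called in WT became 23 with a replicate block, 38 with the control ratio as a covariate, 5 with only the 4 arrays compared and 0 to 11 without 1 array. The 5 called in fit became 24, 20, 1 and 0 to 6, and 8 without both arrays of high control ratio. Calls between genotypes were 0 in each alternative fit, with the exception of 2 under iron deficiency with the covariate, AT2G41810 and the unnamed 259018_at. The same holds for the difference of responses, with 0 throughout. The members' median fold change was -0.96 in WT and -1.01 in fit without both arrays, -1.01 in fit with the covariate, and -1.15 to -0.96 in WT and -1.18 to -1.01 in fit without 1 array. The causes were not tested, apart from the fewer arrays of some fits. The share of all probe sets called in each alternative fit is not given here. A changed count can therefore not be read as particular to the members.

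Replicate numbers are shared between groups, but no label says that a number marks a shared batch, and 2 numbers are too few to show pairing. Deviations of equal numbers correlated between groups at 0.13 to 0.66. A dim signal limits small differences, and 2 arrays per group limit all of them.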

Other observations

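Positions were looked at as values only. The 26 named members lay on all 5 nuclear chromosomes, 3 on chromosome 1, 8 on 2, 4 on 3, 5 on 4 and 6 on 5. The nearest protein-coding genes on either side, in the order of the RefSeq table, gave 30 neighbours with a probe set of their own beside 20 members. No neighbour was a member. Both responses were negative for 16 of the 30 neighbours, while over all probe sets both were negative for 30.2%. The neighbours' median log2 fold change was -0.12 in WT and -0.04 in fit.

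3 neighbours belong to the same cell wall families as the member beside them, and were picked for that after their values were seen. AT4G25260, an inhibitor family gene beside AT4G25250, had log2 fold changes of -0.57 in WT and -0.77 in fit, with gaps of 0.47 and 0.57. AT2G41800, a DUF642 gene beside AT2G41810, had -0.55 and -0.55. AT2G43880, a polygalacturonase family gene beside AT2G43890, had -0.09 and -1.01. Probes of such close copies can share signal, which was not tested.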
